A study of Mus musculus with 6 samples.

Results

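Cisplatin reaches kidney tubule cells through membrane carriers and leaves them through export pumps. The transcripts of 9 genes for such proteins were examined here in the kidneys of cisplatin-treated WT and Trpm2-/- mice. They were taken from the deposited tables by gene name, and all 9 of the 9 names were found among 54532 genes. The group holds the organic cation carriers Slc22a2 (OCT2) and Slc47a1 (MATE1), the copper carriers Slc31a1 (CTR1) and Slc31a2 (CTR2), and the copper-exporting ATPases Atp7a and Atp7b. It also holds the export pumps Abcc2 (MRP2), Abcc4 (MRP4) and Abcb1a, a mouse P-glycoprotein. RNA came from whole kidneys of 3 WT mice and 3 TRPM2-KO mice, written Trpm2-/- from here on. According to the labels all were C57BL/6J mice of 6 to 8 weeks, while the methods give male mice of a somewhat older age. Every mouse had received cisplatin at 18 mg/kg and was examined 72 h later. No untreated kidneys were analysed here, so the comparison is between genotypes under the drug. The methods describe the Trpm2-/- line as a deletion of exons 17 and 18 that leaves a protein which forms no functional channel. They also state that WT mice were bought from a supplier and that the Trpm2-/- mice came from a university. Littermates are not mentioned, so genotype and source of the mice cannot be told apart.

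In the proximal tubule, OCT2 on the basolateral membrane brings organic cations and cisplatin in from the blood, and MATE1 on the apical membrane passes organic cations on to the urine. CTR1 is the high-affinity copper importer, through which platinum can also enter, and CTR2 is a related protein found largely on intracellular membranes. ATP7A and ATP7B load copper into the secretory pathway and remove it from the cell, and they can bind platinum. MRP2 exports glutathione conjugates into the urine, MRP4 exports organic anions, and P-glycoprotein exports a broad range of hydrophobic compounds.

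The libraries held 14053307 to 17150089 reads counted on genes. The floor of 3 counts came to 0.184 to 0.205 CPM (counts scaled to library size with TMM factors), which covers counting error only. For Trpm2 itself the WT kidneys gave 5, 5 and 27 reads, and the Trpm2-/- kidneys gave 10, 16 and 20. A count over the whole gene includes the exons kept in the allele, so it does not check the genotype labels. The defining proximal tubule markers Lrp2, Cubn and Slc34a1 were present in all 6 libraries, with a lowest value of 52.0 CPM. Of a list of 15 proximal tubule markers, 13 were called lower in Trpm2-/- kidneys, against 7.28% of all genes tested. Reads on the mitochondrial genome made up 4.43% to 4.72% of WT and 7.91% to 11.04% of Trpm2-/- libraries, and their part in the results was not tested beyond leaving those genes out, which kept every member's call. Some libraries stood apart in the markers of other cell types. WT replicate 1 had a summed level of 57.4 CPM over 6 urothelium markers, against 8.22 and 15.1 CPM in the other WT libraries. Trpm2-/- replicate 4 had 537 CPM over 6 podocyte markers, against 136 to 181 CPM in the other 5 libraries. It was also highest in endothelium (370 against 117 to 240 CPM) and fibroblast markers (166 against 47.3 to 96.2 CPM). WT replicate 3 had 2261 CPM of thick ascending limb markers, against 215 to 1254 CPM in the others. Trpm2-/- replicate 2 had 72.4 CPM of distal convoluted tubule markers, against 215 to 394 CPM in the others.

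Of the 9 transporters, 1 fell and 1 rose in Trpm2-/- kidneys at an adjusted p under 0.05 (edgeR's quasi-likelihood test, Benjamini-Hochberg adjustment over 15816 genes). Among all genes tested, 7.28% were called lower and 4.74% higher. The uptake carrier Slc22a2 fell by 1.52 on the log2 scale, and the copper pump Atp7a rose by 1.89. These 2 were also the members past the threshold of the methods, a log2 fold change beyond 1 in either direction with an unadjusted p under 0.05, which 4.1% of all genes passed as lower and 3.5% as higher. At an unadjusted p under 0.05, 4 members were lower and 3 higher, where the shares among all genes were 14.3% and 14%. All 9 passed the filter on low counts, 5 had a log2 fold change below 0 and 4 above, and their median was -0.38 against 0.02 over all genes tested. In 6 of the 9 the genotypes did not overlap, 4 with every Trpm2-/- mouse lower and 2 with every one higher, and 33.5% of all genes were apart in this way.

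The promoters of the members at the centre of the comparison are shown here for their sequence context. They are those of Slc22a2 and Atp7a, which were called, and of the neighbours Slc31a1 and Slc31a2, whose genotypes were apart in opposite directions. The call of Slc22a2 was kept in 16 of 16 alternative analyses and that of Atp7a in 9 of 16. RefSeq sequences on GRCm38.p6, from 250 bases before to 50 after the start that RefSeq gives, were found for 8 of the 9 members, and Slc47a1 had none in the table. Capitals mark matches, on either strand, to the antioxidant response element core TGACNNNGC, the metal response element core TGCACNC or TGCGCNC, and the E-box CACGTG. Also searched were an HNF1 site and the HNF4 site CAAAGTCCA. The windows lie at chr17:12583939-12584238 for Slc22a2, chrX:106026974-106027273 for Atp7a, chr4:62360451-62360750 for Slc31a1 and chr4:62286179-62286478 for Slc31a2, all on the plus strand. The RefSeq start lies 57 bases inside the gene as the deposited tables bound it for Slc22a2, and 52 and 26 bases before it for Atp7a and Slc31a1. For Slc31a2 it lies 23867 bases inside, and which of the counted transcripts start there was not examined.
Slc22a2: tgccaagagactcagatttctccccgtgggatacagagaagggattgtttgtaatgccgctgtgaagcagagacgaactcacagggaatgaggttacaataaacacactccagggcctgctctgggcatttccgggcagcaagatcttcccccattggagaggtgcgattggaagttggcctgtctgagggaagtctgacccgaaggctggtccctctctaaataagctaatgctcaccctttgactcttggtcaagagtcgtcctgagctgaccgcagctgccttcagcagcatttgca
Atp7a: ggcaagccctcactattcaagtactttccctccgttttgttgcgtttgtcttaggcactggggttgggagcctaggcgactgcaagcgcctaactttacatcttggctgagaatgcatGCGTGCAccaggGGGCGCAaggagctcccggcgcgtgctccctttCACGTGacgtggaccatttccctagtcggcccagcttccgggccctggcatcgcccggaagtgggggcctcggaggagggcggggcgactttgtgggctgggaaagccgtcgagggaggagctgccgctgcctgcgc
Slc31a1: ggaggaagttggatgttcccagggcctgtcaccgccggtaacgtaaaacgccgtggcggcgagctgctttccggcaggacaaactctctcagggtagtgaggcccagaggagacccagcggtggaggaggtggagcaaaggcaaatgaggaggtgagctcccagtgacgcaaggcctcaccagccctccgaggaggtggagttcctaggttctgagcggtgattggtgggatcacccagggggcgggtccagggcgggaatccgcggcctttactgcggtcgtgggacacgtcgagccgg
Slc31a2: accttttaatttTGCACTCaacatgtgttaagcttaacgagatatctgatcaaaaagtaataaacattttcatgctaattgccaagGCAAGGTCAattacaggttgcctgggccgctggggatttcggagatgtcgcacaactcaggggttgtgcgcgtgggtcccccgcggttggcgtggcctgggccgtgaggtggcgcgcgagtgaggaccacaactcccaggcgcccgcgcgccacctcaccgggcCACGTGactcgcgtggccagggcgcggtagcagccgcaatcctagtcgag

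No match to any of the 5 motifs was found in the windows of Slc22a2 and Slc31a1. The window of Atp7a held 2 metal response element cores and 1 E-box. That of Slc31a2 held 1 metal response element core, 1 antioxidant response element core and 1 E-box. None of these matches overlapped another. Windows not shown also held matches. Atp7b had 1 metal response element core and Abcc2 1 antioxidant response element core, with log2 fold changes of -0.38 and -0.54. Abcb1a and Abcc4, at 0.64 and 0.65, each had an antioxidant response element core, and Abcc4 also metal response element cores and an E-box. Matches thus occurred in members with changes of either sign, and a relation to direction was not tested. Among 32851 promoter windows of the same length, 25.7% held a metal response element core, 12.4% an antioxidant response element core, 7.15% an E-box, 0.475% the HNF4 site and 0.0609% the HNF1 site. These letter matches are a description of sequence and show neither binding nor a cause.

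Slc22a2 (chromosome 17, 12584132 to 12628488 of GRCm38, 12 exons) was the member with the largest decrease. It had 188, 188 and 239 CPM in the WT kidneys and 55.5, 64.9 and 93.6 CPM in the Trpm2-/- kidneys. The genotypes did not overlap, and the highest Trpm2-/- kidney was still far below the lowest WT kidney. The means were 205 ± 29.3 and 71.3 ± 19.8 CPM (SD, n = 3), a 2.88-fold lower level in Trpm2-/- kidneys. On the log2 scale the difference was -1.52 with an SE of 0.204 (95% interval -1.98 to -1.07, adjusted p = 0.00298 from the edgeR test). In the order of log2 fold changes from the lowest it stood at position 259 of 15816. The decrease was called in 16 of 16 alternative analyses, with values from -1.76 to -1.37.

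Slc47a1 (chromosome 11, 61343401 to 61378345), the exit route for organic cations on the apical side, was lower by less. Its level was 305, 310 and 380 CPM in the WT kidneys and 210, 216 and 280 CPM in the Trpm2-/- kidneys. Each Trpm2-/- kidney was below each WT kidney, but the gap between the genotypes was small. Trpm2-/- minus WT gave a log2 fold change of -0.50 with an SE of 0.162 (95% interval -0.86 to -0.13), and the adjusted p of 0.0769 in the edgeR test did not pass the threshold. Without Trpm2-/- replicate 4, the library rich in podocyte, endothelium and fibroblast markers, it was -0.63 with an adjusted p of 0.0354 in the same test. Leaving out any other mouse gave -0.56 to -0.39, with adjusted p of 0.0989 to 0.299. Slc47a1 was called in 3 of 16 alternatives, which also included the DESeq2 Wald test and no filter on low counts, both with all mice kept.

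**Figure D1:**
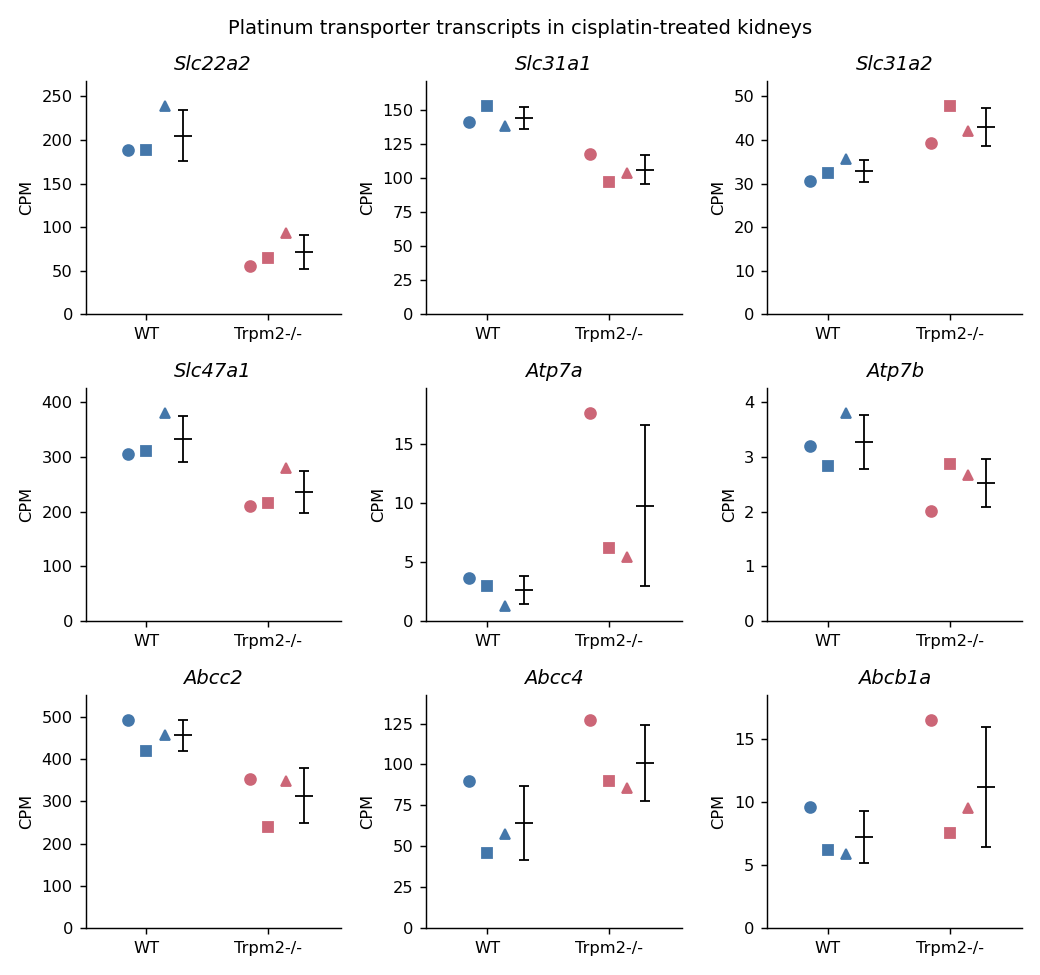
Level of each of the 9 transporters in each kidney, in CPM on a linear axis from 0, with WT mice in blue and Trpm2-/- mice in red. Circles, squares and triangles mark the 3 mice of a genotype in label order, and black bars show the mean and SD. Slc22a2 lay between 188 and 239 CPM in WT and between 55.5 and 93.6 CPM in Trpm2-/- kidneys, and the high Trpm2-/- point of Atp7a is 1 mouse at 17.7 CPM.

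The copper carriers Slc31a1 and Slc31a2 lie 62316 bases apart on chromosome 4, and their genotypes were apart in opposite directions. Slc31a1 (62360727 to 62391769) had 141, 153 and 138 CPM in the WT kidneys and 118, 97.0 and 104 CPM in the Trpm2-/- kidneys. Slc31a2 (62262562 to 62298411) had 30.7, 32.5 and 35.7 CPM in the WT kidneys and 39.3, 47.8 and 42.0 CPM in the Trpm2-/- kidneys. For Slc31a1 every Trpm2-/- value was below the WT range, and for Slc31a2 every one was above it. The log2 fold change was -0.44 for Slc31a1 with an SE of 0.128 (adjusted p = 0.0547 from the edgeR test). For Slc31a2 it was 0.38 with an SE of 0.134 (adjusted p = 0.0928 from the edgeR test). Neither passed the threshold, and the 95% intervals were -0.73 to -0.15 and 0.08 to 0.68. Slc31a1 passed with the DESeq2 Wald test (adjusted p = 0.0366) and without Trpm2-/- replicate 1 (adjusted p = 0.0412 from edgeR). Leaving out any other mouse gave Slc31a1 an adjusted p of 0.102 to 0.217, and Slc31a2 passed in 0 of 16 alternatives.

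Atp7a (chromosome X, 106027276 to 106124926), the copper ATPase mutated in Menkes disease, was scarce in these kidneys. The WT kidneys gave 59, 47 and 21 reads, and the Trpm2-/- kidneys 289, 91 and 88. In CPM these were 3.64, 3.02 and 1.29 against 17.7, 6.21 and 5.48. All Trpm2-/- kidneys were above all WT kidneys, but replicate 1 was far above the other two. The log2 fold change was 1.89 with an SE of 0.517 (95% interval 0.73 to 3.05, adjusted p = 0.0434 from the edgeR test). Without Trpm2-/- replicate 1 it was 1.14 with an adjusted p of 0.147, and the call was also lost on leaving out any one of the WT mice, with adjusted p of 0.0621, 0.118 and 0.148 for WT replicates 1, 2 and 3 in the edgeR test. It was kept in 9 of 16 alternatives, and in each of the 16 the value stayed above 0.

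Atp7b (chromosome 8, 21992785 to 22060305), the liver-type copper ATPase mutated in Wilson disease, had 33 to 62 reads per library. Its levels were 3.21, 2.83 and 3.80 CPM in the WT kidneys and 2.02, 2.87 and 2.68 CPM in the Trpm2-/- kidneys. The ranges overlapped, and the log2 fold change was -0.38 with an SE of 0.306 (adjusted p = 0.459 from the edgeR test). The 95% interval ran from -1.07 to 0.31.

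Among the export pumps, Abcc2 (chromosome 19, 43782192 to 43840740) was the most abundant in counts. It had 494, 419 and 457 CPM in the WT kidneys and 354, 239 and 349 CPM in the Trpm2-/- kidneys. All Trpm2-/- kidneys were lower, with replicate 2 the lowest. On the log2 scale the difference was -0.54 with an SE of 0.177 (95% interval -0.94 to -0.14, adjusted p = 0.077 from the edgeR test). The threshold was not passed here, while the DESeq2 Wald test gave an adjusted p of 0.0266.

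Abcc4 (chromosome 14, 118482692 to 118706219) had 89.6, 45.9 and 57.4 CPM in the WT kidneys and 127, 89.9 and 85.5 CPM in the Trpm2-/- kidneys. Only WT replicate 1 reached the Trpm2-/- range. This was also the library with the high urothelium markers, whose part in the level of Abcc4 was not tested. Trpm2-/- minus WT gave a log2 fold change of 0.65 with an SE of 0.248 (95% interval 0.09 to 1.21, adjusted p = 0.12 from the edgeR test). It was 0.96 with an adjusted p of 0.0304 without this mouse in the same test. Without WT replicate 2 or Trpm2-/- replicate 1 it was 0.46 and 0.45, with adjusted p of 0.345 and 0.315. Abcc4 was also called with all mice kept and no filter on low counts, at 0.64 with an adjusted p of 0.00191 from edgeR. The DESeq2 Wald test did not call it (adjusted p = 0.0567).

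Abcb1a (chromosome 5, 8660077 to 8748575) had 9.56, 6.17 and 5.89 CPM in the WT kidneys and 16.5, 7.51 and 9.53 CPM in the Trpm2-/- kidneys. The ranges overlapped, and the highest value was again that of Trpm2-/- replicate 1. The log2 fold change was 0.64 with an SE of 0.325 (95% interval -0.09 to 1.36, adjusted p = 0.236 from the edgeR test). Without Trpm2-/- replicate 1 it was 0.24 (adjusted p = 0.647 from edgeR). Its counts are uncertain, since 17.13% of its 75-base windows also occur in other genes, among them its close copy Abcb1b, and 10.091% of its exon bases overlap the antisense gene Gm42686. Abcb1b had 78.6 ± 16.4 CPM in WT and 90.1 ± 1.10 CPM in Trpm2-/- kidneys (SD, n = 3), with a log2 fold change of 0.20 (adjusted p = 0.458 from the edgeR test).

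**Figure D2:**
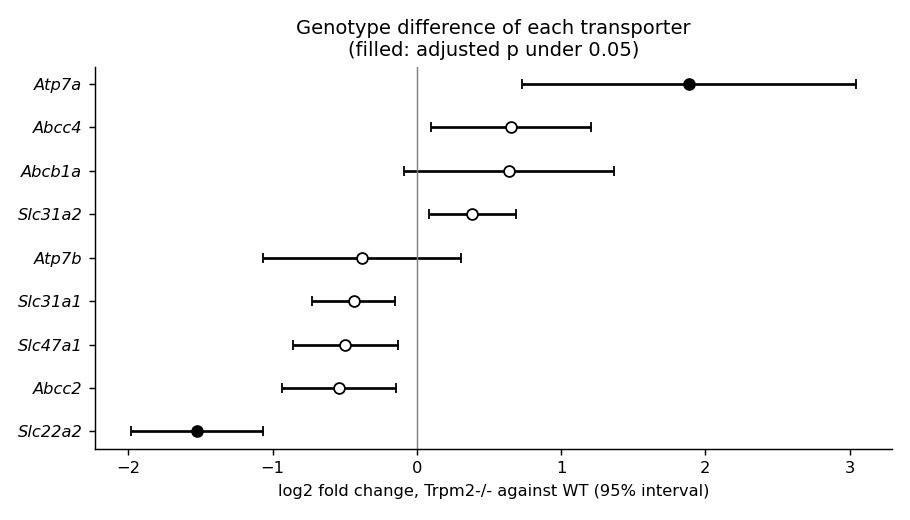
Log2 fold change of each transporter, Trpm2-/- against WT, with its 95% interval from the edgeR fit. Filled points passed an adjusted p of 0.05, which held for Slc22a2 at -1.52 and Atp7a at 1.89. The intervals of Atp7b and Abcb1a include 0.

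Levels of different genes were compared per length, with the deposited FPKM values (fragments per kilobase of gene, scaled by library total). In WT kidneys the order of mean FPKM was Slc47a1 (85.8 ± 10.5, SD, n = 3), Slc22a2 (72.2 ± 10.1), Abcc2 (46.8 ± 3.91), Slc31a1 (29.4 ± 1.65), Slc31a2 (14.2 ± 1.06) and Abcc4 (8.81 ± 3.12). Abcb1a, Atp7b and Atp7a followed with 1.15 ± 0.329, 0.441 ± 0.0651 and 0.266 ± 0.123 FPKM. The only neighbours in this order whose ranges overlapped were Slc47a1 and Slc22a2, and Slc47a1 was above Slc22a2 in 3 of 3 WT mice. In Trpm2-/- kidneys Slc47a1 stayed first with 61.3 ± 10.5 FPKM. Slc22a2, with 25.4 ± 7.21 FPKM, came after Abcc2 with 32.5 ± 6.88 FPKM. From Abcc2 down to Abcc4, with Slc31a1 (21.9 ± 2.20 FPKM) and Slc31a2 (18.7 ± 1.81 FPKM) between them, the ranges of each pair of neighbours overlapped. Atp7a was above Atp7b in these kidneys, in 3 of 3 mice.

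Ratios of a pair within one kidney do not depend on how libraries are scaled. The FPKM ratio of Slc22a2 to Slc47a1, uptake over apical exit, was 0.840, 0.826 and 0.856 in WT kidneys and 0.361, 0.409 and 0.456 in Trpm2-/- kidneys. The WT kidneys were nearly alike, and each Trpm2-/- kidney lay well below them. The ratio of Slc31a1 to Slc31a2 was 2.18, 2.23 and 1.84 in WT kidneys and 1.42, 0.964 and 1.17 in Trpm2-/- kidneys. Abcc2 to Abcc4 gave 4.13, 6.83 and 5.96 against 2.08, 1.99 and 3.06. Atp7b to Atp7a gave 1.18, 1.26 and 3.96 against 0.153, 0.620 and 0.656, where the last WT value rests on 21 reads of Atp7a. In all 4 pairs the ranges of the genotypes were apart. In each pair the first gene had the lower log2 fold change, so the ratios largely restate the differences given above. The share of all gene pairs apart in this way was not computed, and 33.5% of single genes were apart. These ratios were described without a test because the members were chosen with earlier results known.

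**Figure D3:**
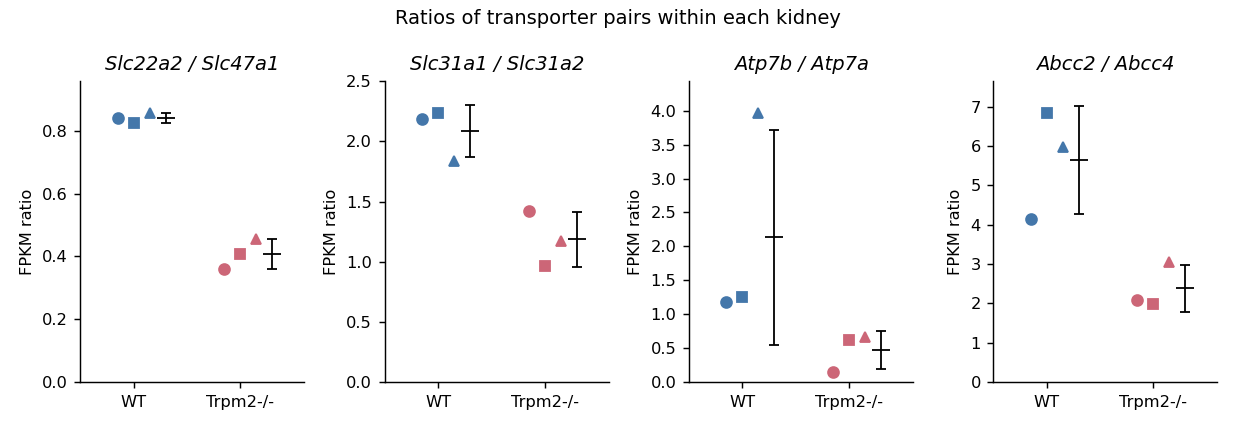
Ratio of the FPKM values of 2 transporters within each kidney, on linear axes from 0, for WT (blue) and Trpm2-/- mice (red), with the mean and SD in black (n = 3). The ratio of Slc22a2 to Slc47a1 lay between 0.826 and 0.856 in WT mice and between 0.361 and 0.456 in Trpm2-/- mice.

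Most proximal tubule markers were lower in Trpm2-/- kidneys alongside Slc22a2. Not called were Slc4a4 at 0.04 and Pdzk1 at -0.87 on the log2 scale (adjusted p = 0.96 and 0.0551 from the edgeR test). The median log2 fold change of the 15 markers was -1.39, and their summed level was 7015 to 8618 CPM in WT and 2919 to 3537 CPM in Trpm2-/- kidneys. Cubn and Slc34a1, an endocytic receptor and a phosphate carrier, had log2 fold changes of -1.39 and -2.73. Fewer tubule cells and less RNA per cell cannot be told apart in whole kidney. Per 1000 CPM of these markers, Slc22a2 stood at 26.9, 24.9 and 27.7 CPM in WT kidneys and at 15.7, 22.2 and 27.1 CPM in Trpm2-/- kidneys. On this scale its genotypes overlapped, and Trpm2-/- replicate 4 was within the WT range. Of the 9 members, 8 were higher on it in every Trpm2-/- kidney and 0 lower, where 82.9% of all genes tested were higher and 0.759% lower, since the marker sum itself was lower (0.427 of the WT mean), and nothing is read from that count. One gene, Slc27a2, made up 32.8% to 47.3% of the marker sum. Without it, a choice made after seeing the data, Slc22a2 also overlapped, at 37.2 to 42.5 in WT and 23.8 to 45.7 in Trpm2-/- kidneys, and 85.1% of all genes were higher and 0.462% lower in every Trpm2-/- kidney.

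Of 9 injured tubule markers, 3 were called higher and 0 lower, where 4.74% and 7.28% of all genes were, with a median of 0.51 and a summed level of 17730 to 19814 CPM in WT and 20080 to 28137 CPM in Trpm2-/- kidneys. Krt20, a keratin of injured tubules, rose by 0.79 on the log2 scale, a call lost without WT replicate 2 or 3 or Trpm2-/- replicate 1 (adjusted p up to 0.115 from edgeR), and Havcr1, which encodes Kim-1, had 0.51 (adjusted p = 0.0747 from the edgeR test). No marker passed in either direction among 8 of endothelium, 6 of podocytes, 5 of neutrophils, 6 of fibroblasts and 3 of the distal convoluted tubule. Lower calls were made for 1 of 6 thick ascending limb, 2 of 8 collecting duct, 1 of 7 macrophage and 1 of 4 urothelium markers, against the 7.28% of all genes. Whether these cell types had a part in the transporter levels was not tested.

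Other genes of organic cation and copper transport were taken from 4 lists of 35 genes, 33 of which were tested. Of these, 5 were called lower and 3 higher, which is 15.2% and 9.09% of the list genes tested against 7.28% and 4.74% of all genes, and their median log2 fold change was 0.04. Among the organic cation carriers, Slc22a3 (OCT3) lies near Slc22a2 on chromosome 17, at 12418960 to 12507704. Slc22a3 fell from 4.64 ± 0.473 to 1.29 ± 0.455 CPM (SD, n = 3), a log2 change of -1.85, which missed the threshold with the replicate number as a block (adjusted p = 0.0506 from edgeR). Of its 75-base windows, 7.71% also occur in Plg, which it overlaps at one end. Slc22a4, a carnitine and ergothioneine carrier, had -0.45 (adjusted p = 0.0769 from the edgeR test).

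The copper handling list held 2 lower and 3 higher genes of 15, which is 13.3% and 20% against 7.28% and 4.74% of all genes tested. Ccs, the chaperone that delivers copper to superoxide dismutase, went from 151 ± 19.4 to 68.8 ± 17.3 CPM, and its client Sod1 from 531 ± 73.0 to 293 ± 59.0 CPM (SD, n = 3). They fell by 1.14 and 0.85 on the log2 scale (adjusted p = 0.00666 and 0.0171 from the edgeR test). Without WT replicate 2 or 3 Sod1 was no longer called, with adjusted p of 0.0705 and 0.0839, and with the replicate block it had 0.0584 in the same test. Cp, the copper-carrying ferroxidase ceruloplasmin, had 143, 138 and 188 CPM in WT and 416, 412 and 231 CPM in Trpm2-/- kidneys. It rose by 1.17 on the log2 scale (adjusted p = 0.0128 from the edgeR test), without overlap, and missed the threshold without WT replicate 2 (adjusted p = 0.066). Mtf1, the metal-responsive transcription factor, and Steap2, a metalloreductase, rose by 0.68 and 0.71 and were named after their values were seen. Both calls were lost without Trpm2-/- replicate 1 and without WT replicate 2 or 3, and that of Steap2 also without WT replicate 1, with adjusted p up to 0.189 in the edgeR test. Atox1, the chaperone that hands copper to ATP7A and ATP7B, had -0.22 (adjusted p = 0.594 from the edgeR test). Sco2 was at 0 reads in all 6 libraries, below the floor.

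Of 8 further export pumps, Abcc6 was the only one called, which is 12.5% lower against 7.28% of all genes tested. It went from 6.36 ± 3.28 to 1.83 ± 0.923 CPM (SD, n = 3). The difference was -1.79 on the log2 scale (adjusted p = 0.0411 from the edgeR test), and the call was lost in 8 of 16 alternatives, among them leaving out WT replicate 2 or 3 or Trpm2-/- replicate 1 or 2, where adjusted p reached 0.182. Abcg2 and Abcb4 had -0.50 and 1.33 (adjusted p = 0.0947 and 0.0891 from the edgeR test). The volume-regulated anion channel, through which platinum drugs can also enter, had 0 of 5 subunits called, where 12% of all genes were called. Among the subunits Lrrc8d had the smallest p, with 0.54 (unadjusted p = 0.0336, adjusted p = 0.139 from edgeR).

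**Figure D4:**
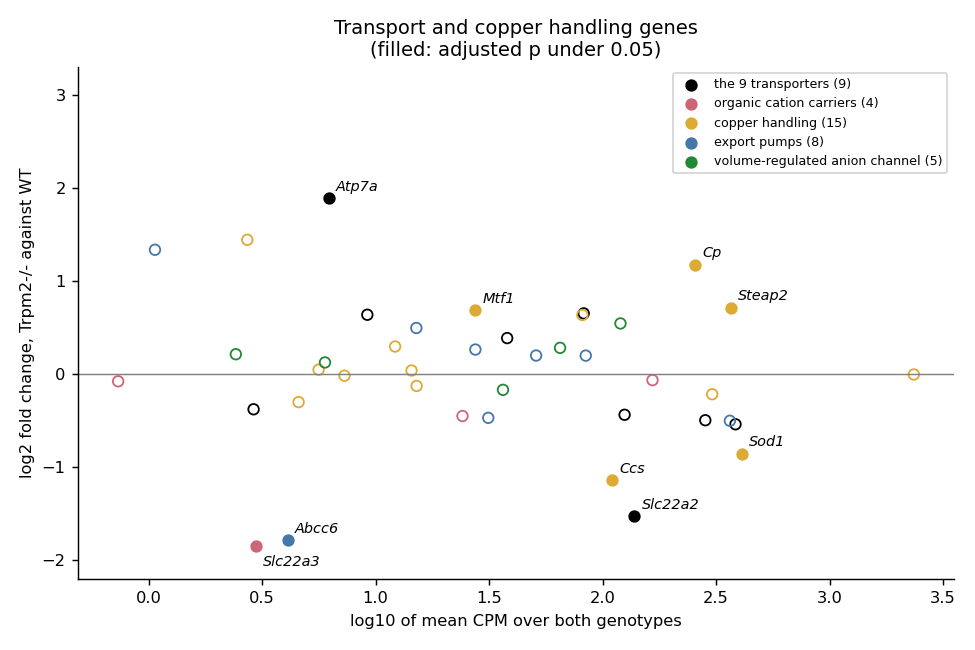
Log2 fold change, Trpm2-/- against WT, against the log10 of mean CPM for the 9 transporters (black) and tested genes of 4 related lists (colours, 1 gene not shown). Filled points passed an adjusted p of 0.05 and are named, among them the organic cation carrier Slc22a3 at -1.85.

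The genes whose pattern was most like that of Slc22a2 were Afap1l1, Reep6 and Hsd3b2. Likeness was the root mean square difference of centred log2 CPM over the 6 kidneys, which was 0.11, 0.11 and 0.14 among 9619 protein-coding genes of at least 10 CPM. Their log2 fold changes were -1.65, -1.55 and -1.47. These are close to that of Slc22a2 by construction, since the genotype difference is part of the likeness. For Slc47a1 the nearest were Rab27a, Kiz and Nfyc, with differences of 0.05, 0.06 and 0.06.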

How the data were processed

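RNA was isolated with Trizol from kidneys of 3 WT and 3 Trpm2-/- mice and sequenced by Illumina HiSeq. The authors deposited whole-read count values per gene, without normalization, and FPKM values, which within a library are proportional to the count over gene length. The submitters' processing notes name HISAT2, StringTie and the build mm9, but 98.33% of the gene positions matched by ID equal those of GRCm38, which is used here. Whether counting used strand is not given in the sources used here.

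The edgeR 4.0.16 package in R 4.3.3 was used with filterByExpr, which kept 15816 genes, TMM scaling and a quasi-likelihood test of genotype (both sides), adjusted by Benjamini-Hochberg over the genes kept. A gene was called at an adjusted p under 0.05. The labels do not name litters or days, so p-values measure the spread between these mice. The source of the mice goes with genotype. Replicate libraries differed by more than sampling noise. Alternatives used other scalings and filters, DESeq2 1.42.0, limma 3.58.1 on counts or log2 FPKM (pseudocount 1 or 0.1), a replicate block, and each mouse left out in turn.

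Members and lists were chosen with earlier results of these data known. Named genes are the members, up to 3 per transport list by p, up to 3 per marker list in written order, and the 3 nearest to Slc22a2 and Slc47a1. Genes named for their role or after their values were seen are Abcb1b, Atox1, Mtf1, Steap2, Krt20, Slc27a2, Slc4a4, Pdzk1 and Sco2. One gene of the transport lists is counted in their totals and is not reported here.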

Additional observations from a re-analysis of the deposited data

How the results depend on the processing

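Over 16 alternative analyses the log2 fold change of every member kept its sign. Of these 144 values, 128 stayed on their side of the adjusted p threshold, 7 lost a call, all for Atp7a, and 9 gained one, for Abcc2, Abcc4, Slc31a1 and Slc47a1. Slc22a2 was called in 16 of 16. The number of members called lower, 1, became 3 with no filter on low counts and 4 with the DESeq2 Wald test, and was 1 to 2 on leaving out each mouse. The number called higher, 1, became 2 with no filter, 0 with limma-voom, 0 with log2(FPKM + 1) and 0 with log2(FPKM + 0.1), and was 0 to 1 on leaving out each mouse. By the threshold of the methods, 1 member higher became 0 with log2(FPKM + 1), where the pseudocount shrinks the fold change of Atp7a to 0.60. Related transport genes called higher, 3, became 6 with no filter, 5 with DESeq2 and 1 with either limma fit on FPKM, and were 0 to 4 on leaving out each mouse; those called lower, 5, were 3 to 5. The cause of these shifts was not tested. Trpm2, at 0.36, ranged from -0.024 without WT replicate 1, with -0.0064 without WT replicate 2, to 1.61 without WT replicate 3.

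Replicate numbers 1 and 2 occur in both genotypes, but nothing says that they pair the mice, and the deviations of same-numbered kidneys correlated at 0.06 and -0.01. With the replicate number as a block, which leaves WT replicate 3 and Trpm2-/- replicate 4 out of the comparison, Slc22a2 had -1.65 and Atp7a 1.68 and both stayed called. That fit compares only replicates 1 and 2 of each genotype and has little left to estimate their spread from. Related transport genes called lower became 2 with the block, in place of 5. The depth limits Atp7a and Atp7b most, with 21 to 289 and 33 to 62 reads per library.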
